A study of Mus musculus with 12 samples.

Results

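The interferon-stimulated genes described here are 39 genes that type I interferon is known to induce. They were chosen by symbol, and 35 of them were measured by a probe set that the platform annotation pairs with a single gene, out of 22180 genes measured that way. Oas1a, Gbp2 and Dtx3l were covered only by probe sets that also carry another symbol (Oas1g, Gbp2b and Parp9), and Ifi44 had no probe set here, so these 4 were not analysed as members. Where a gene had more than 1 probe set, which held for Sp100 and Ifi35, the probe set with the highest mean was taken. Values are log2 levels as the authors normalized them (RMA), 1 per gene and array, and a difference of 1 is a 2-fold change.

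The study compared brown adipose tissue of mice that lack Sel1L in adipocytes with that of control littermates, at room temperature and in the cold. Sel1L is an adaptor of an endoplasmic reticulum ubiquitin ligase that marks misfolded proteins for degradation. The 4 groups held 3 arrays each. The control animals were C57BL/6J mice carrying the floxed Sel1L allele (Sel1L f/f) without Cre, and the knockout animals carried the same floxed allele with Adiponectin-Cre, which acts in adipocytes and leaves Sel1L intact in the other cells of the tissue. All animals were fasted for 5 h, either at room temperature or at 4 °C, and 100 ng of total RNA went onto each array. The labels used here name the samples as brown adipose tissue although the design text speaks of isolated brown adipocytes, and they do not say whether each array was a separate animal, so the p-values refer to the spread between arrays, which may be partly technical. For control replicate 3 at room temperature the source name says 4 °C while the title and the temperature entry say room temperature, and it was kept at room temperature.

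Ucp1, the uncoupling protein that defines brown adipocytes, lay between 12.38 and 12.83 on the log2 scale in all 12 arrays. At room temperature Sel1l read 7.37, 6.96 and 7.23 in controls and 6.18, 6.09 and 5.92 in knockouts, which checks the labels there. At 4 °C it read 6.99, 6.69 and 7.04 in controls and 6.90, 6.73 and 6.54 in knockouts. These groups overlapped, so the probe set does not check the labels at 4 °C. Of 12 listed genes of endoplasmic reticulum folding, 10 were called higher in the knockout at 4 °C and 0 lower (limma, adjusted p under 0.05). Their median difference was 2.60 on the log2 scale. Of all probe sets 3.61% were called higher there and 2.19% lower. The array medians over all probe sets lay between 2.03 and 2.09. Skeletal muscle markers differed between arrays within groups: the mean log2 level of 20 of them was 6.37, 6.85 and 7.25 in room-temperature controls but 6.33, 2.99 and 3.76 in room-temperature knockouts.

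Type I interferons bind the Ifnar1 and Ifnar2 receptor chains, and the JAK kinases behind the receptor phosphorylate Stat2, which joins Irf9 in the ISGF3 complex. ISGF3 binds the interferon-stimulated response element in the promoters of target genes, whose products sense viral RNA, block viral translation, cleave RNA, trap virions at the membrane, or, like Usp18, shut the receptor off. Interferon-gamma acts at another DNA element and induces a partly overlapping set that includes the guanylate-binding proteins.

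RefSeq promoter entries of the build GRCm38.p6 were at hand for 24 of the 35 genes, and the 250 bases before each start were searched on both strands for the core letters of the 2 elements. The response element core, written here as GAAA, any 2 bases and GAAA again, or on the other strand TTTC, any 2 bases and TTTC, was present before at least 1 start of 10 of the 24 genes (41.7%), against 3.46% of the 27025 genes in the promoter table. The 10 were Bst2, Gbp3, Gbp7, Ifit1, Ifit3, Isg15, Oas3, Rsad2, Stat2 and Trim30a. The interferon-gamma element core TTCNNNGAA, which reads the same on both strands, was present for 4 (16.7%), Bst2, Eif2ak2, Gbp7 and Ifit2, against 8.13% of all genes in the table. In Bst2 the matches to the 2 cores overlapped. A match describes the letters and does not show that a factor was bound, and these exact letters leave out variant sites.

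Knockout minus control at room temperature had a median of 0.93 in the 10 genes with the response element core and 0.80 in the 14 without. The order was reversed for the within-group correlation with the mean of the other members, described below. Its median was 0.51 in the 10 genes and 0.85 in the 14. Usp18 and Rtp4, which were called at room temperature, had no promoter entry and are in neither set. Promoters of 4 genes are shown as examples. Isg15 and Ifit1 are genes of the antiviral programme with several matches. Gbp3 was called higher in the knockout at room temperature. Ddx58 was called lower at 4 °C than at room temperature within the knockout, although its window held no match. Capitals mark the response element core, each line runs 5′ to 3′ on the gene's strand and ends at the base before the start. The Isg15 window is chr4:156200819-156201068 on the minus strand, Ifit1 chr19:34640639-34640888 on the plus strand, Gbp3 chr3:142559794-142560043 on the plus strand and Ddx58 chr4:40239826-40240075 on the minus strand.
Isg15: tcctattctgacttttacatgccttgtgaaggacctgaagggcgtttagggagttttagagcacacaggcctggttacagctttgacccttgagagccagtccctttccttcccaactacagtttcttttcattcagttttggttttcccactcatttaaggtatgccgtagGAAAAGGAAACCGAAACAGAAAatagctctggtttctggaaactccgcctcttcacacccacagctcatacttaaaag
Ifit1: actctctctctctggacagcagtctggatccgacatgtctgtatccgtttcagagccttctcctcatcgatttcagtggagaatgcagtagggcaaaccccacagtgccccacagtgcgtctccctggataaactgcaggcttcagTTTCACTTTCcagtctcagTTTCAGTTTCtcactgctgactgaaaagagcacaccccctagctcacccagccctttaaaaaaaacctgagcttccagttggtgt
Gbp3: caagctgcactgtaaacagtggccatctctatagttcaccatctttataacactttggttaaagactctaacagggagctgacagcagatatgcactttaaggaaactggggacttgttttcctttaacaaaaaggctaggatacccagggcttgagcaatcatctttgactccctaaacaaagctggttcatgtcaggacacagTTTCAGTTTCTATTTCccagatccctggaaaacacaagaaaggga
Ddx58: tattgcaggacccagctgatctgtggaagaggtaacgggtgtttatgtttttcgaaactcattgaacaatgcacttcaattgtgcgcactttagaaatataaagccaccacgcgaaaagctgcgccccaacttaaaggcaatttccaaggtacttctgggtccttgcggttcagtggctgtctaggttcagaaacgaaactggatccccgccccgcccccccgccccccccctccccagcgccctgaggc
In Isg15 the 3 matches overlapped from base -78 to base -57 before the start. Ifit1 held 2 matches as reverse complements, from -104 to -95 and from -85 to -76. Gbp3, shown before the first of its 2 starts, held 2 overlapping matches between -45 and -30.

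At room temperature the mean of each of the 35 interferon-stimulated genes was higher in the knockout than in the control, against 48.8% of the 23521 probe sets tested, and its median was 0.77 on the log2 scale, or 1.71-fold, against -0.0053 over all probe sets. In 23 of the 35 genes every knockout array lay above every control array, against 8.76% of all probe sets. Only 3 genes passed the test across all probe sets (limma with Benjamini-Hochberg adjustment, adjusted p under 0.05), Usp18, Rtp4 and Gbp3, which is 8.57% of the members against 1.29% of all probe sets called higher, and none was called lower (0.429% of all probe sets). At an unadjusted p under 0.05, 27 were higher, against 6.78% of all probe sets. The count called depended on single arrays. It was 15 without knockout replicate 2, 0 without knockout replicate 1, knockout replicate 3 or control replicate 2, 1 without control replicate 1 and 2 without control replicate 3, and 5 without knockout replicate 3 of the 4 °C group. Of all probe sets, 1.72% were called in either direction with all arrays. In these fits, in the order given, the share was 1.25%, 1.42%, 1.19%, 1.08%, 1.16%, 1.22% and 1.52%. In whole tissue, more or fewer cells of a type and more or less RNA per cell cannot be told apart.

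**Figure D1:**
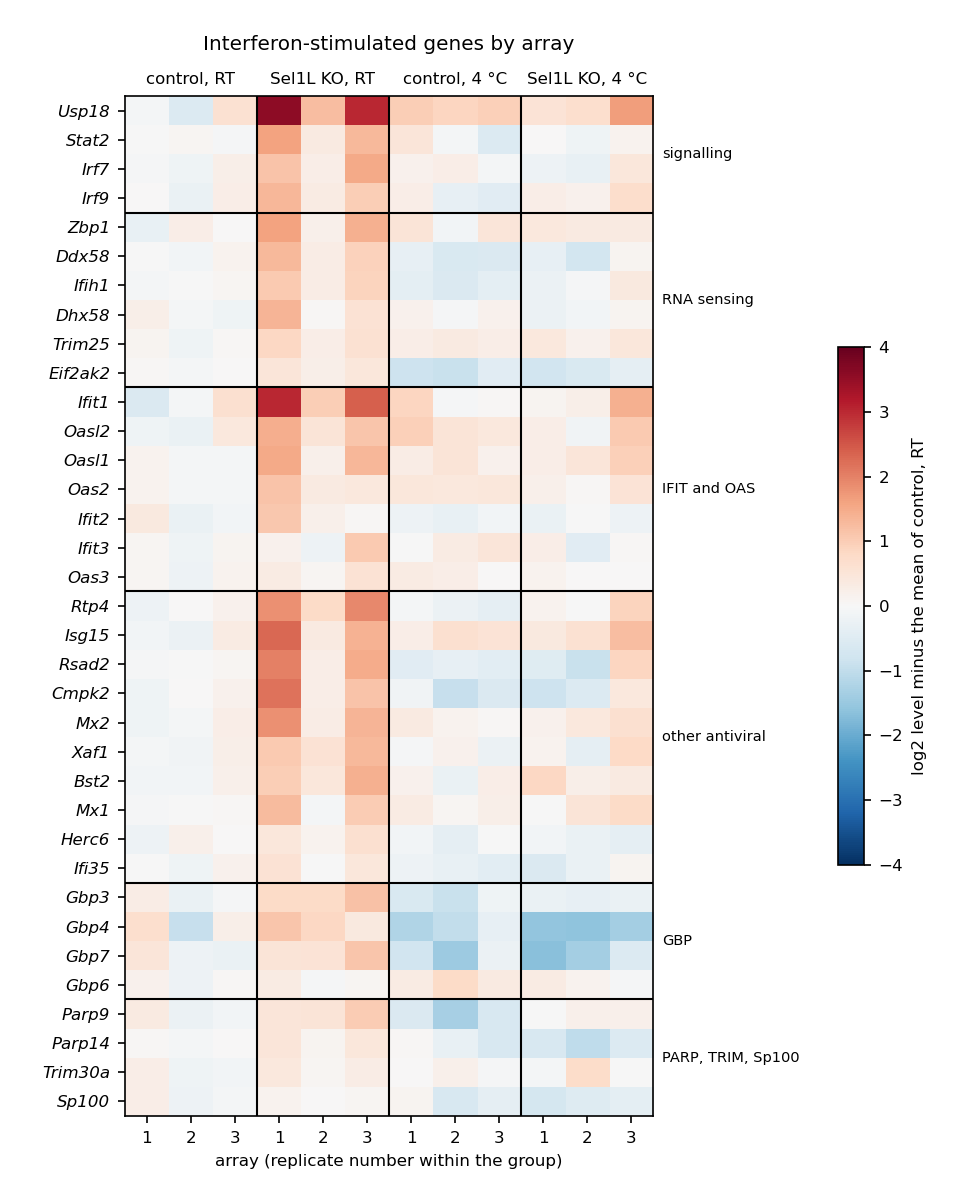
Log2 level of each of the 35 genes in each of the 12 arrays, minus the gene's mean over the 3 control arrays at room temperature; rows are grouped by role and sorted by the genotype difference at room temperature. Red columns mark knockout replicates 1 and 3 at room temperature, while knockout replicate 2 is paler for most genes, and the guanylate-binding proteins Gbp4 and Gbp7 turn blue in the cold.

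The signalling and feedback genes were Usp18, Irf7, Irf9 and Stat2. Usp18, the protease that removes Isg15 from proteins and also blocks the interferon receptor, showed the largest genotype difference of the 35 genes. At room temperature its log2 level was 3.04, 2.56 and 3.71 in controls and 6.68, 4.33 and 6.13 in knockouts. All 3 knockout arrays lay above all 3 controls, with replicate 2 the lowest. The difference was 2.61 ± 0.50 (SE), or 6.10-fold, with a limma adjusted p of 0.0184. At 4 °C the controls read 4.10, 3.97 and 4.04 and the knockouts 3.64, 3.78 and 4.77, so that the knockout arrays lay on both sides of the controls, and the difference was 0.03 ± 0.50 (adjusted p = 0.988).

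Stat2, which brings the activation domain to ISGF3, read 4.46, 4.55 and 4.43 in controls and 6.08, 4.83 and 5.78 in knockouts at room temperature. Irf9, which contacts the DNA in ISGF3, read 4.86, 4.55 and 5.09 in controls and 6.15, 5.18 and 5.83 in knockouts. Irf7, a transcription factor that drives further interferon production, read 4.37, 4.26 and 4.67 in controls and 5.58, 4.70 and 5.96 in knockouts. In all 3 genes the knockout arrays lay above the controls without overlap, yet replicate 2 stood within 0.28 of the highest control array in each, and the differences of 1.09 (adjusted p = 0.0921), 0.88 (0.122) and 0.98 (0.116) were not called. At 4 °C these 3 genes overlapped between genotypes, with Stat2 at 4.97, 4.40 and 3.92 in controls and 4.51, 4.31 and 4.62 in knockouts. Irf9 read 5.09, 4.50 and 4.38 against 5.11, 5.02 and 5.52. Irf7 read 4.60, 4.69 and 4.34 against 4.22, 4.12 and 4.87.

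The 6 genes of RNA sensing comprise the cytosolic RNA helicases Ddx58 (RIG-I), Ifih1 (MDA5) and Dhx58 (LGP2), the RIG-I ubiquitin ligase Trim25, the Z-nucleic acid sensor Zbp1 and the translation-blocking kinase Eif2ak2 (PKR). Their differences at room temperature lay between 0.40 and 1.09, none was called, and 4 of the 6 did not overlap between genotypes. Ddx58 read 5.13, 5.05 and 5.30 in controls and 6.47, 5.47 and 6.07 in knockouts. Ifih1 read 5.29, 5.36 and 5.46 in controls and 6.42, 5.67 and 6.26 in knockouts. Zbp1 read 3.15, 3.70 and 3.47 in controls and 5.06, 3.65 and 4.87 in knockouts. Knockout replicate 2 was above the controls for Ddx58 and Ifih1 but inside their range for Zbp1. Eif2ak2 had the smallest difference of the class: 5.02, 4.89 and 4.97 in controls against 5.46, 5.20 and 5.42 in knockouts, with no overlap and a difference of 0.40 ± 0.14 (adjusted p = 0.217).

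The 7 measured IFIT and OAS effectors bind viral RNA or make the oligoadenylates that switch on RNA cleavage. Ifit1, which binds RNA lacking a host cap mark, read 2.74, 3.24 and 3.97 in controls and 6.32, 4.31 and 5.70 in knockouts. Its difference of 2.13 ± 0.49 (4.37-fold) was the second largest of the 35 and just missed the threshold (adjusted p = 0.0512). Oasl2 read 3.15, 3.08 and 3.77 in controls and 4.78, 3.84 and 4.46 in knockouts, and Oasl1 read 2.00, 1.80 and 1.80 in controls and 3.38, 2.06 and 3.19 in knockouts, again without overlap. The other 4 genes differed by 0.33 to 0.64. Ifit2 and Oas3 had means below the highest array median, where a level cannot be told from background.

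The 10 other antiviral effectors include the ubiquitin-like modifier Isg15, the radical SAM enzyme Rsad2 (viperin) with its neighbour Cmpk2, the virion tether Bst2 (tetherin), the dynamin-like Mx1 and Mx2, and Rtp4. Rtp4, a protein first known from receptor transport, was called at room temperature: 4.07, 4.30 and 4.45 in controls and 6.12, 5.03 and 6.20 in knockouts, a difference of 1.51 ± 0.29 (2.84-fold, adjusted p = 0.0193). Isg15 read 2.15, 2.01 and 2.57 in controls and 4.54, 2.60 and 3.62 in knockouts. Rsad2 read 4.63, 4.67 and 4.77 in controls and 6.71, 4.97 and 6.17 in knockouts. For both genes knockout replicate 2 stood just above the highest control array, and replicates 1 and 3 stood at least 1.05 above it. Cmpk2 read 4.20, 4.40 and 4.54 in controls and 6.57, 4.64 and 5.52 in knockouts. Bst2, the brightest of the 35 genes, read 6.66, 6.64 and 6.97 in controls and 7.73, 7.20 and 8.19 in knockouts. Its difference of 0.95 ± 0.24 was not called (adjusted p = 0.0676). Mx1 and Mx2 averaged below the highest array median over the 12 arrays, and knockout replicates 1 and 3 alone carried them above it, Mx2 at 3.23 and 2.76 and Mx1 at 2.60 and 2.35. Herc6, the mouse ligase for Isg15, overlapped between genotypes, at 4.30, 4.69 and 4.51 in controls and 4.95, 4.65 and 5.13 in knockouts.

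The guanylate-binding proteins are large GTPases that coat vacuoles and bacteria. Gbp3 was called at room temperature, at 4.60, 4.06 and 4.27 in controls and 5.08, 5.08 and 5.47 in knockouts, a difference of 0.90 ± 0.19 (1.87-fold, adjusted p = 0.0297). Knockout replicate 2 was as high as replicate 1 for Gbp3, unlike for the antiviral effectors. Gbp7 read 6.11, 5.43 and 5.38 in controls and 6.15, 6.18 and 6.76 in knockouts, again with replicate 2 among the rest. Gbp4 overlapped, at 4.13, 2.51 and 3.69 in controls and 4.54, 4.26 and 3.83 in knockouts. Gbp6 lay near background in all groups, between 1.30 and 2.26.

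The last class holds the ADP-ribosyltransferase family members Parp9 and Parp14, the ligase Trim30a and the nuclear body protein Sp100. Parp9 read 5.71, 5.10 and 5.23 in controls and 5.83, 5.87 and 6.35 in knockouts at room temperature, with no overlap and a difference of 0.67 ± 0.22 (adjusted p = 0.182). Parp14 read 5.53, 5.40 and 5.51 in controls and 5.98, 5.58 and 5.94 in knockouts. Sp100 had the smallest difference of the 35, 0.08 ± 0.18, with controls at 5.58, 5.10 and 5.21 and knockouts at 5.44, 5.30 and 5.39. Trim30a averaged below the highest array median.

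At 4 °C most of the 35 genes overlapped between genotypes. The median difference of the 35 genes was 0.09 against -0.01 over all probe sets, 23 of 35 differences lay above 0 (47.6% of all probe sets), and 1 gene was called higher, 2.86% against 3.61% of all probe sets. That gene was Parp9, which with its partner Dtx3l marks proteins at sites of damage and infection: 4.77, 4.02 and 4.71 in controls and 5.33, 5.55 and 5.55 in knockouts, a difference of 0.97 ± 0.22 (1.96-fold, adjusted p = 0.0195). The call was lost without control replicate 2 or without knockout replicate 2 or 3. Parp9, Ifih1 and Rtp4 did not overlap with the knockout higher, 8.57% of the members against 11.2% of all probe sets, and Gbp4 did not overlap with the knockout lower (10.7% of all probe sets). Ifih1 read 4.99, 4.80 and 4.98 in controls and 5.13, 5.33 and 5.74 in knockouts. Rtp4 read 4.21, 4.04 and 3.92 in controls and 4.41, 4.24 and 5.16 in knockouts. In both genes knockout replicate 3 was the highest array of its group.

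**Figure D2:**
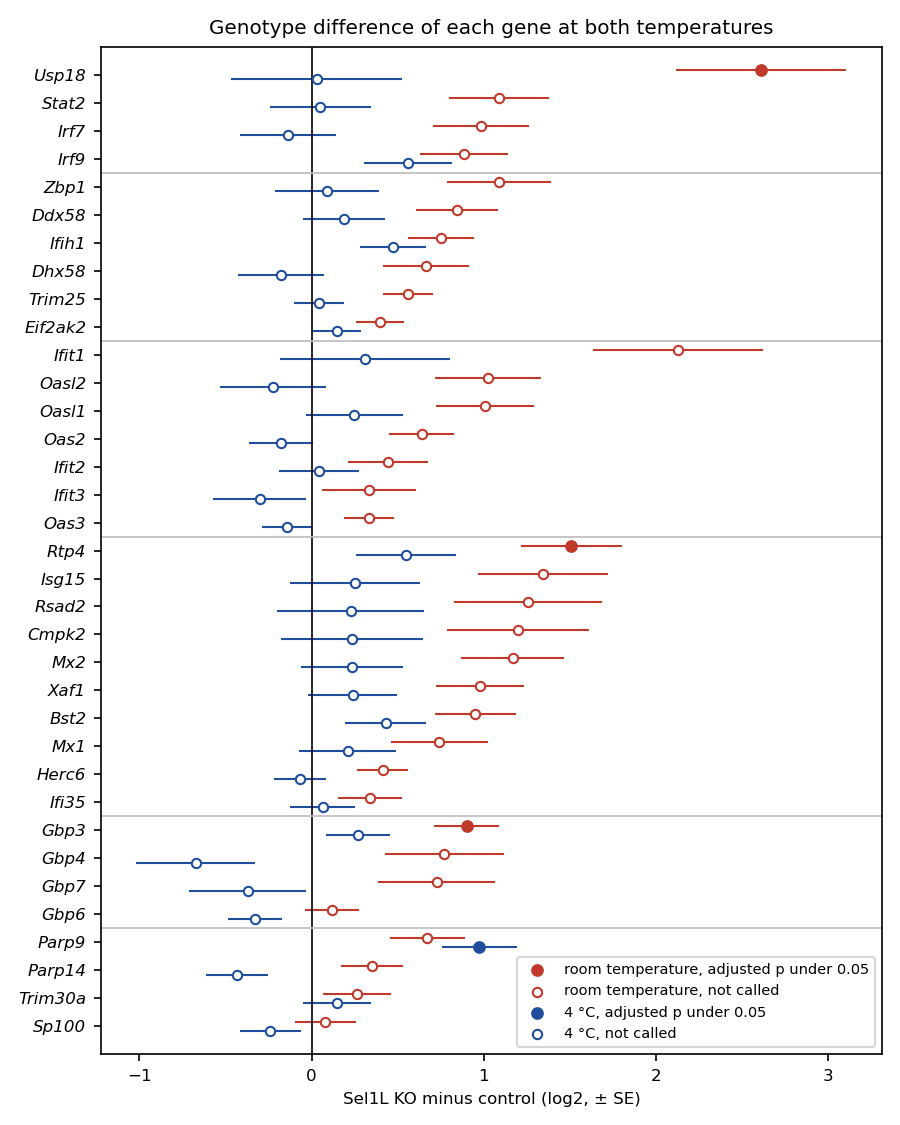
Knockout minus control difference of each of the 35 genes (log2 scale, bars are ± SE of the limma fit) at room temperature (red) and at 4 °C (blue); filled points passed an adjusted p under 0.05. All red points lie right of 0, from 0.08 for Sp100 to 2.61 for Usp18, while the blue points lie between -0.67 for Gbp4 and 0.97 for Parp9.

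In the cold 12 of the 35 genes were called lower in knockouts and 2 in controls. The comparison in controls shares its arrays with the genotype comparisons, and so does that in knockouts, so their values are given side by side and not as independent evidence. In controls the median difference, 4 °C minus room temperature, was -0.05 and 17 of 35 genes lay above 0 (47.9% of all probe sets). Of the 35, 2 were called lower, 5.71% against 6.23% of all probe sets, and none higher, against 4.85% of all probe sets. At an unadjusted p under 0.05, 2 were higher (9.97% of all probe sets) and 6 were lower (17.1% against 13.2% of all probe sets). Eif2ak2 went from 5.02, 4.89 and 4.97 to 4.12, 4.07 and 4.50, a difference of -0.73 ± 0.14 (adjusted p = 0.00503). Parp9 went from 5.71, 5.10 and 5.23 to 4.77, 4.02 and 4.71, a difference of -0.85 ± 0.22 (adjusted p = 0.0254), and its call was lost without control replicate 1 at room temperature or control replicate 2 at 4 °C.

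In knockouts the median difference between 4 °C and room temperature was -0.70 against -0.01 over all probe sets, and 1 of the 35 genes, Gbp6, lay above 0 (47.4% of all probe sets). In these arrays 12 genes were called lower (34.3% against 4.7% of all probe sets) and none higher (4.32% of all probe sets), also at an unadjusted p under 0.05 (limma). Their groups did not overlap in 11 of the 35 genes (31.4% against 14.1% of all probe sets). The 12 were Irf7, Stat2, Ddx58, Ifih1, Gbp3, Gbp4, Gbp7, Rtp4, Parp14, Cmpk2, Herc6 and Eif2ak2. The count was 21 without knockout replicate 2 at room temperature, 7 without replicate 1 and 6 without replicate 3, and in the cold it was 7 without replicate 1, 6 without replicate 2 and 15 without replicate 3. Of all probe sets, 9.03% were called in either direction with all arrays. In these fits, in the order given, the share was 5.94%, 7.77%, 6.64%, 5.86%, 5.42% and 6.83%. Ddx58, Gbp3, Gbp4, Gbp7, Parp14 and Eif2ak2 kept their call in the cold in each of these fits.

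Of the role classes, the guanylate-binding proteins had the lowest median in the knockout in the cold, -1.55, and 3 of the 4 fell. Gbp4 went from 4.54, 4.26 and 3.83 to 1.87, 1.84 and 2.08, at or below the level of the array medians, a difference of -2.28 ± 0.34 (adjusted p = 0.00146). Gbp7 went from 6.15, 6.18 and 6.76 to 3.97, 4.29 and 5.11, a difference of -1.91 ± 0.34 (adjusted p = 0.00385). Gbp3 went from 5.08, 5.08 and 5.47 to 4.05, 3.97 and 4.05, a difference of -1.19 ± 0.19 (adjusted p = 0.00185). None of these 3 overlapped between temperatures. In controls the same genes differed in the same direction without being called: Gbp4 by -0.84, Gbp7 by -0.81 and Gbp3 by -0.56, with adjusted p values of 0.159, 0.166 and 0.0817.

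Among the sensors, Ddx58 in knockouts went to 4.84, 4.44 and 5.26 in the cold (difference -1.15 ± 0.24, adjusted p = 0.00915). Eif2ak2 went to 4.21, 4.34 and 4.59, a difference of -0.98 ± 0.14 (adjusted p = 0.00103), so that it was called lower in the cold in both genotypes. Ifih1 fell by 0.72 (adjusted p = 0.0355). Of the effectors, Cmpk2 fell by 1.52 to 3.55, 3.83 and 4.79 (adjusted p = 0.0383). Rtp4 fell by 1.18 (adjusted p = 0.0236). Herc6 fell by 0.65 to 4.40, 4.23 and 4.15 (adjusted p = 0.0164). Of the signalling genes, Stat2 fell by 1.09 and Irf7 by 1.01, to the level of the cold controls. Parp14 went to 4.85, 4.47 and 4.94, a difference of -1.08 ± 0.18 (adjusted p = 0.00274). Ifit1 at 3.44, 3.55 and 4.73 and Rsad2 at 4.20, 3.80 and 5.56 differed by -1.54 and -1.43 from room temperature and were not called (adjusted p of 0.0771 and 0.0587). In both, knockout replicate 3 stayed inside the room-temperature knockout range.

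Whether the genotype difference itself changed with temperature was tested by the interaction term. The median interaction of the 35 genes was -0.74, but no gene was called (limma; 17 were lower at an unadjusted p under 0.05, against 4.63% of all probe sets, and 0.306% of all probe sets passed the adjusted threshold). Usp18 had the largest interaction, -2.58 ± 0.70 (adjusted p = 0.173), and passed the threshold once knockout replicate 2 of the room-temperature group was set aside (-3.27, adjusted p = 0.0201). Averaged over both temperatures, 7 genes were called higher in the knockout, 20% of the members against 4.24% of all probe sets: Usp18, Irf9, Ifih1, Gbp3, Bst2, Rtp4 and Parp9. That count was 20 without knockout replicate 2 at room temperature, and 4 without control replicate 1 or 2 at room temperature, control replicate 2 at 4 °C or knockout replicate 1 at 4 °C. Of all probe sets, 6.96% were called in either direction with all arrays. In these fits, in the order given, the share was 5.99%, 5.75%, 6.19%, 6.5% and 5.67%. Rtp4 kept its call in the average under every alternative fit tried, with an averaged difference of 1.03 ± 0.21 (adjusted p = 0.00841).

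The 35 genes varied together within groups. Their mean log2 level was 5.05, 4.19 and 4.87 in knockout replicates 1, 2 and 3 at room temperature, against 3.90, 3.72 and 3.97 in controls. At 4 °C it was 3.90, 3.71 and 3.80 in controls and 3.74, 3.73 and 4.16 in knockouts. Knockout replicate 2 at room temperature held the lowest value of its group for 31 of 35 genes, against 32.1% of all probe sets. Knockout replicate 3 at 4 °C held the highest for 26 of 35, against 34.2% of all probe sets. Knockout replicate 1 at room temperature lay above every room-temperature control array for 34 of the 35 genes, replicate 3 for 31 and replicate 2 for 24. Over all 35 genes, the median of the level minus that of the highest such control was 0.92, 0.77 and 0.07 in replicates 1, 3 and 2. The median SD of a gene within the room-temperature knockout group was 0.50, against 0.16 for all probe sets, and in the knockout group at 4 °C it was 0.31 against 0.14. In the control groups at room temperature and 4 °C it was 0.19 and 0.21 against 0.15 and 0.16.

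**Figure D3:**
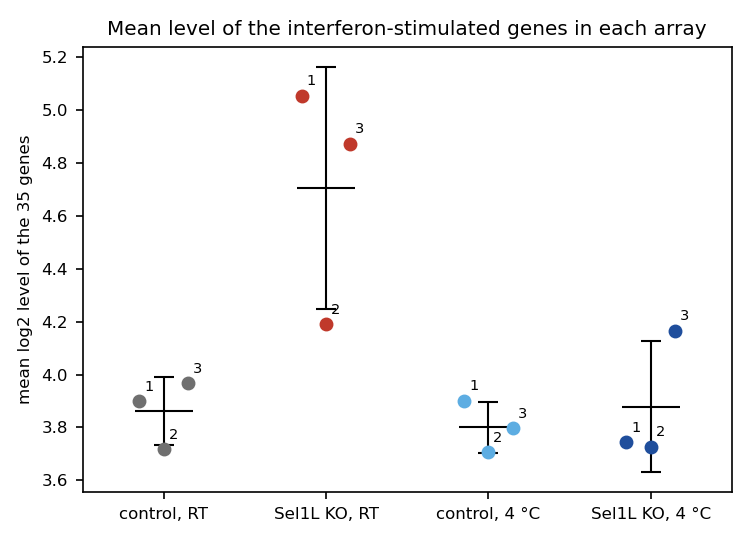
Mean log2 level of the 35 interferon-stimulated genes in each array (points, numbered by replicate) with the group mean (line) and SD (bars, n = 3 arrays). Knockout replicates 1 and 3 at room temperature sit at 5.05 and 4.87, above the other 10 arrays, and replicate 2 at 4.19 sits next to knockout replicate 3 at 4 °C at 4.16.

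With each value taken as its deviation from the group mean, the correlation between members had a median of 0.43 over 595 pairs, and 27.9% of pairs exceeded 0.7. Between members and other probe sets the median was -0.0036 and 1.86% exceeded 0.7. The members share arrays, and much of the correlation rests on 1 array: without knockout replicate 2 at room temperature the median was 0.24 and 13.8% of pairs exceeded 0.7, against 2.80% with other probe sets. Usp18 followed the mean of the other 34 genes most closely (r = 0.97 over 12 arrays), then Ifih1 (0.93) and Ddx58 (0.92). At the other end were Trim30a (0.09), Gbp6 (0.14), Gbp4 (0.18), Gbp3 (0.24), Parp9 (0.28), Herc6 (0.29) and Gbp7 (0.37). In the room-temperature knockout group, replicates 1 and 3 averaged 2.07 above replicate 2 for Usp18, 1.70 for Ifit1 and 1.47 for Rsad2, while for Gbp3, Parp9 and Gbp4 the same gap was 0.20, 0.22 and -0.07. All 20 genes with r above 0.7 were signalling genes, sensors or antiviral effectors, and none was a guanylate-binding protein or of the PARP, TRIM and nuclear body class. The r of each gene includes knockout replicate 2 at room temperature and was not computed without it, so this split is not separate from that gap.

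**Figure D4:**
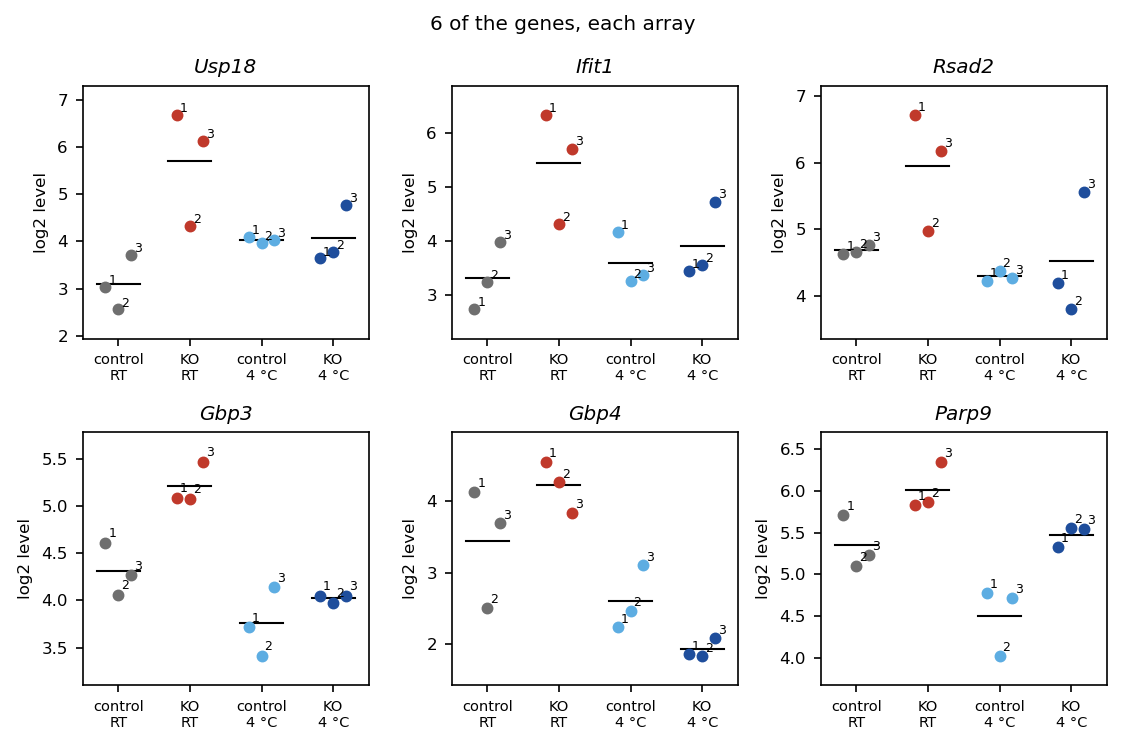
Log2 level in each array (points, numbered by replicate; line, group mean) of 3 genes with a large gap between knockout replicate 2 and replicates 1 and 3 at room temperature (Usp18, Ifit1, Rsad2) and 3 with a small one (Gbp3, Gbp4, Parp9), chosen after their values were seen. In the upper row replicate 2 lies at 4.33, 4.31 and 4.97, well under replicates 1 and 3; in the lower row it lies at 5.08, 4.26 and 5.87, among them.

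Values of other lists beside knockout replicate 2 at room temperature are as follows. The summed linear level of 14 neutrophil and mast cell markers was 130, 72.2 and 122 in knockout replicates 1, 2 and 3 and 93, 73 and 90.3 in controls. That of 12 dendritic and plasmacytoid dendritic cell markers was 478, 393 and 561 against 348, 349 and 406, with the plasmacytoid marker Siglech near background in all arrays, between 1.37 and 2.41. That of 16 macrophage markers was 837, 866 and 712 against 1020, 636 and 728. No marker of these 3 lists was called between genotypes at room temperature (1.72% of all probe sets, either direction). The dendritic cell list includes Bst2, which is also among the interferon-stimulated genes described here. At room temperature Bst2 read 7.73, 7.20 and 8.19 on the log2 scale in knockouts and 6.66, 6.64 and 6.97 in controls. Like the dendritic cell sum, it was lowest in replicate 2 among the knockouts. That sum is therefore not separate from the interferon-stimulated genes, and a sum without Bst2 was not tested. The 14 measured T and NK cell markers summed to 69.7, 79 and 76.9 in knockouts and 59.3, 63.3 and 56.1 in controls. These groups did not overlap, and replicate 2 was the highest array. The mean log2 level of the 14 lay between 1.93 and 2.31 in all arrays. That is near the array medians, where signal is hard to tell from background. Of these 14 markers, 11 were higher in the knockout at room temperature by their means (48.8% of all probe sets). Gzma, a granzyme of cytotoxic cells, was called (1.00 ± 0.17, limma adjusted p = 0.00944). In the knockout in the cold 1 of the 14 lay above 0 (47.4% of all probe sets), and the sums were 59.3, 56.7 and 59.7. Ncr1, a receptor of NK cells, was called lower (-1.08 ± 0.20, limma adjusted p = 0.0056). The 9 measured B and plasma cell markers summed to 319, 407 and 324 against 207, 199 and 160 at room temperature. The one called was Xbp1, which is also on the endoplasmic reticulum list. Of the 9, 5 were higher in the knockout by their means (48.8% of all probe sets), with a median difference of 0.0018. Their mean log2 levels overlapped, at 2.89, 2.89 and 2.80 in knockouts and 2.85, 2.96 and 2.59 in controls. The 12 genes of the endoplasmic reticulum folding list summed to 6050, 7490 and 5580 in knockouts and 1810, 1750 and 1890 in controls, so replicate 2 was the highest array there. Skeletal muscle markers were lowest in replicate 2, as given above. With the muscle level as a covariate 5 interferon-stimulated genes were called at room temperature (0.812% of all probe sets in that fit, either direction). The part of these markers in the result was not tested further.

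**Figure D5:**
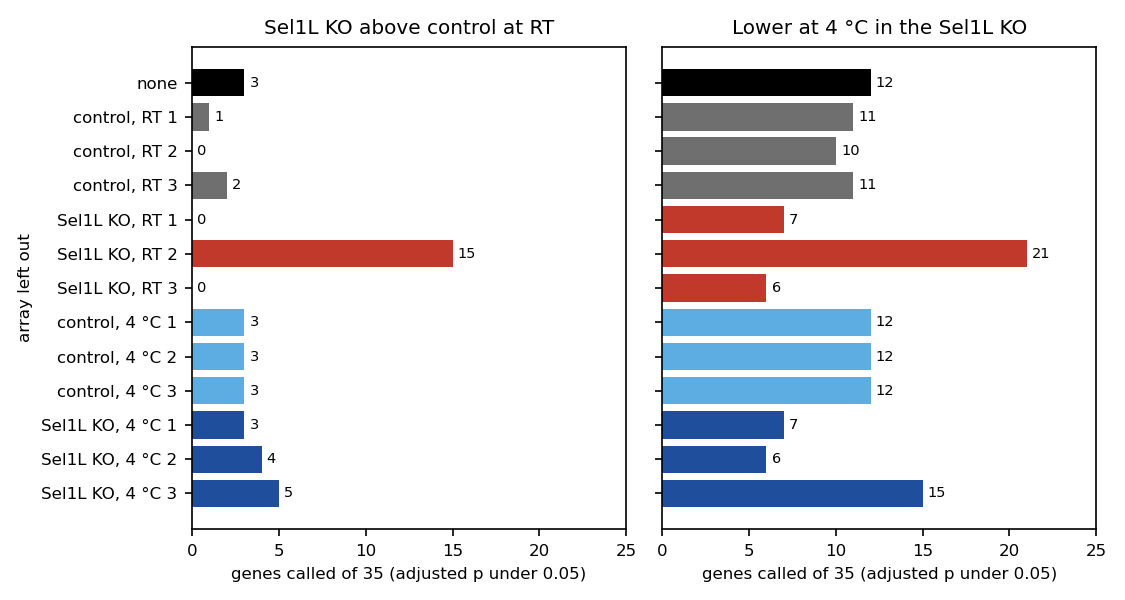
Number of the 35 genes called (limma, adjusted p under 0.05) with all arrays (black) and with each array left out in turn, coloured by group; left, knockout against control at room temperature, right, 4 °C against room temperature in the knockout, where all calls are lower. Without knockout replicate 2 at room temperature the counts rise from 3 to 15 and from 12 to 21. The share of all probe sets called falls from 1.72% to 1.25% and from 9.03% to 5.94%.

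Without knockout replicate 2, the 15 genes called at room temperature were Usp18 (3.30, adjusted p = 0.000553), Rtp4, Mx2, Zbp1, Oasl1, Isg15, Ifit1, Stat2, Irf7, Mx1, Ifih1, Bst2, Trim25, Ddx58 and Irf9. These 15 include members of every class but the guanylate-binding proteins and the PARP, TRIM and nuclear body class, and Gbp3 was no longer called although its difference was 0.97 ± 0.21 (adjusted p = 0.0569), against 0.90 with all arrays. This array was set aside after the values were seen, and its label gives no reason to leave it out.

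No interferon transcript was called. Of 18 listed type I interferon genes 16 were measured, and none was called in any comparison, nor were the 3 other interferons measured (Ifng, Ifnl2 and Ifnl3). Of all probe sets, between 0.306% (interaction) and 11.1% (cold in controls) were called per comparison. Ifna1 (2.65 to 3.72), Ifna4 (3.43 to 4.16) and Ifnl2 (2.87 to 3.68) lay above the highest array median in all 12 arrays. Ifnb1 lay between 1.03 and 1.69 and Ifng between 1.15 and 1.66 in all 12 arrays. Both were below the array medians, so a change in these 2 transcripts was not detectable at this signal. The limit is not confined to them. The mean log2 level of the 16 type I genes lay between 1.64 and 1.79 in every array, also below the array medians. The receptor chain Ifnar1 lay between 7.09 and 7.73 and was not called. Ifnar2 read 8.75, 8.82 and 8.67 in controls and 8.26, 8.38 and 8.32 in knockouts at room temperature, below every control, and was called lower in the knockout at 4 °C (-0.48 ± 0.12, adjusted p = 0.0345). Irf1, a transcription factor induced by interferon-gamma, read 4.82, 4.53 and 4.74 in controls and 5.21, 4.81 and 5.22 in knockouts at room temperature. In the knockout it fell in the cold to 3.91, 3.75 and 3.80 (-1.25 ± 0.15, adjusted p = 0.00036).

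Of 20 measured nucleic acid sensors and adaptors, none was called between genotypes at room temperature, and at 4 °C 1 was called higher and 2 lower. Of all probe sets, 1.29% were called higher and 0.429% lower at room temperature, and 3.61% and 2.19% at 4 °C. Mavs, the mitochondrial adaptor through which Ddx58 and Ifih1 signal, lay between 8.52 and 9.13 in the 3 controls and read 7.02, 6.82 and 7.23 in the knockouts at 4 °C. The groups stood far apart, a difference of -1.86 ± 0.15 (3.63-fold lower, adjusted p = 8.31e-06). At room temperature Mavs read 8.60, 8.48 and 8.61 in controls and 8.51, 8.52 and 8.37 in knockouts, and its interaction was called (-1.76 ± 0.22, adjusted p = 0.00625). Irf3, the transcription factor that acts after Mavs, fell in the knockout in the cold from 5.46, 5.11 and 5.63 to 4.76, 4.62 and 4.69 (-0.71 ± 0.15, adjusted p = 0.0116). Tbk1, the kinase between them, was lower in the knockout at 4 °C by 0.64 (a difference of -0.64 ± 0.15, adjusted p = 0.0220), and Zc3hav1, an antiviral RNA-binding protein, was higher by 0.46 ± 0.12 (adjusted p = 0.0493).

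Of 47 measured further type I interferon targets, 3 were called higher in the knockout at room temperature (Isg20, Oas1g and Ascc3) and none lower, with a median difference of 0.32; of all probe sets 1.29% were called higher and 0.429% lower. In the knockout in the cold 3 of the 47 rose and 4 fell, where 4.32% of all probe sets rose and 4.7% fell. Isg20, an RNA exonuclease, read 4.88, 4.75 and 5.17 in controls and 5.75, 5.73 and 5.88 in knockouts at room temperature, and at 4 °C 5.75, 6.30 and 5.95 against 6.78, 6.46 and 6.92. It was called higher in the cold in both genotypes and higher in the knockout at both temperatures. Of 24 measured interferon-gamma targets and immunity GTPases, 2 were called higher at room temperature (Gbp11 and Wars). In the knockout in the cold 7 of the 24 fell (Irgm1, Irgm2, Igtp, Iigp1, Gbp5, Gbp9 and Ciita) and 1 rose (Wars, a tRNA synthetase), with a median of -0.40, against the same 4.7% and 4.32% of all probe sets. Of 14 measured genes of class I antigen processing, Tap1 and Tapbpl were called higher at room temperature, and 7 fell in the cold in the knockout and 5 in the control, where 4.7% and 6.23% of all probe sets fell. Tap1, a subunit of the peptide transporter, read 6.12, 6.01 and 6.00 in room-temperature knockouts against 5.23, 5.05 and 5.35 in controls, with no gap at replicate 2. Of 19 measured NF-kB targets none was called at room temperature between genotypes. In the knockout 5 rose in the cold, against 4.32% of all probe sets. The mean log2 level of the 19 was 3.89, 3.40 and 3.82 in room-temperature knockouts and 3.32, 3.32 and 3.43 in controls. Replicate 2 was thus the lowest knockout array there too. The same held for the further type I targets (4.65, 4.32 and 4.49) and the interferon-gamma targets (4.59, 4.31 and 4.58). It did not hold for class I antigen processing (6.09, 6.11 and 6.24).

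Of all 22145 other genes measured, the 20 most like the mean of the members, by correlation of group-centred values over 12 arrays, had r of 0.88 or more. They included Dctd, Il4ra, Sugp2, Slco4a1, Ctdsp1, Gm4951, Rad51b, Cma1, Gm6525 and Sirpb1c as the first 10. Of the 20, 1 was on the list of further type I targets (Gm4951) and 3 on any list. Cxcl10, a chemokine induced by interferons, was the twelfth, at 2.07, 1.69 and 1.97 in controls and 4.25, 2.15 and 4.17 in knockouts at room temperature, a difference of 1.61 ± 0.45 that was not called (adjusted p = 0.106). Itih4, an inter-alpha-trypsin inhibitor chain, read 3.48, 3.80 and 3.55 in controls and 6.75, 3.75 and 6.20 in knockouts at room temperature, so that replicate 2 lay at the control level, and at 4 °C 3.17, 2.93 and 3.00 against 6.19, 5.95 and 6.57.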

How the data were processed

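Log2 expression values of 12 Affymetrix arrays (3 in each of 4 groups) were taken from the deposited table of 41345 probe sets. Per the submitters' processing notes the authors used RMA, which corrects the background, quantile-normalizes and summarizes the probes of a set, so small changes of dim sets are compressed. The genome build was not given in the sources used here. Groups came from the titles. Of the probe sets, 23521 carried 1 gene symbol and were tested, 1814 carried several and 16010 none. In R 4.3.3, limma 3.58.1 gave each of the 4 groups a mean in a single fit over the 12 arrays (8 residual degrees of freedom, median SE of a difference 0.14), with Benjamini-Hochberg adjustment and a threshold of 0.05. The 6 comparisons share arrays. The number of arrays limits the precision.

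The members and gene lists were chosen with earlier results of these data known. Every measured member is accounted for, and values by array are given for members called in any comparison and the leading ones of each class. The fit was checked on simulated data. Replicate numbers did not pair arrays (group-centred r above 0.1 in 2 of 18 pairs, from -0.18 to 0.16). Alternatives were a replicate block, each array left out, only the arrays compared, all probe sets, dim sets removed, median centring, robust moderation, a muscle covariate, averaged probe sets and 1 moved array. Promoters came from RefSeq (GRCm38.p6).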

Additional observations from a re-analysis of the deposited data

Results flagged for a closer look

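A probe set annotated to both Dtx3l and Parp9, which was outside the members because it carries 2 symbols, was higher in the knockout. At 4 °C it read 4.07, 3.96 and 3.94 in controls and 5.18, 4.92 and 5.14 in knockouts, without overlap, a difference of 1.09 ± 0.15 (limma, adjusted p = 0.00256 over all probe sets of the table). At room temperature it read 4.15, 3.74 and 4.40 in controls and 4.83, 4.68 and 4.82 in knockouts, and the difference of 0.68 ± 0.15 was not called (adjusted p = 0.0752). The probe set of Parp9 alone was the only member called at 4 °C, at 0.97. The shared set is annotated to both genes, so it cannot be assigned to either. The other shared sets were not called at room temperature: Gbp2 or Gbp2b differed by 1.08 ± 0.46 (adjusted p = 0.412) and Oas1a or Oas1g by 0.23 ± 0.21 (adjusted p = 0.780).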

How the results depend on the processing

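No call changed direction under any of the 21 alternatives. Medians near 0 did: the genotype difference at 4 °C went from 0.09 to -0.02 without knockout replicate 3 at 4 °C, and the cold difference in controls from -0.05 to 0.05 without control replicate 3 at 4 °C and to 0.0086 without control replicate 3 at room temperature. With 3 arrays a group the counts of members called were the least stable values: 18 of the 25 calls were lost under at least 1 setting, and 7 were kept under all (Ddx58, Gbp3, Gbp4, Gbp7, Parp14 and Eif2ak2 in the cold in knockouts, Rtp4 averaged over temperatures). At room temperature the count of 3 became 0 with only the arrays compared and with all probe sets, 1 with control replicate 3 moved to 4 °C, 5 with dim probe sets left out and 5 with the muscle covariate, and ranged from 0 to 15 with 1 array left out. In the first 5 of these fits, in that order, 1.04%, 0.977%, 0.753%, 3.87% and 0.812% of all probe sets were called in either direction. At 4 °C the count of 1 became 0 with the moved array (4.75% of all probe sets) and ranged from 0 to 1. In controls in the cold the count of 2 became 1 with only the arrays compared (7.73% of all probe sets) and 1 with all probe sets (5.41%). It became 0 with the moved array (where 0% of all probe sets were called), and ranged from 1 to 3. In knockouts in the cold the count of 12 became 7 with all probe sets (4.55% of them called) and ranged from 6 to 21, and its median ranged from -0.99 to -0.56. The interaction count ranged from 0 to 1. The averaged count of 7 became 4 with all probe sets (3.99% of them called) and 11 with the muscle covariate (4.43%), and ranged from 4 to 20. Testing all probe sets adjusts over more tests, and leaving out arrays uses fewer samples. The other causes were not tested. With the replicate number as a block, 5 members were called at room temperature (Bst2 and Ifit1 added) and 15 in the cold in knockouts, and 9 in the average. Of all probe sets, 1.54%, 8.28% and 6.6% were called there in either direction. The numbers do not pair the arrays. Signal over background limits 6 members whose mean lay below the highest array median, 2.09.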
